A study of Arabidopsis thaliana with 7 samples.

Results

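The genes described here are the core cell cycle regulators of Arabidopsis thaliana, 40 loci in 5 classes: 9 A-type cyclins, 9 B-type cyclins, 10 D-type cyclins, 5 cyclin-dependent kinases (CDKA;1, CDKB1;1, CDKB1;2, CDKB2;1 and CDKB2;2) and the 7 KIP-related protein (KRP) inhibitors. Members were chosen by gene family and locus, with earlier results of these data known. The probes whose RefSeq transcript belongs to one of these loci were taken. A probe was matched for 39 of the 40 loci (44 probes), and 38 were tested among 20509 genes tested in all. CYCD5;1 (AT4G37630) had no matched probe, and CYCD7;1 had 2, both too dim to test.

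RNA of 35S:MYB106VP16 seedlings was hybridised to 4 one-colour Agilent arrays and RNA of wild-type seedlings to 3. Plants of both genotypes were Columbia-0, were harvested whole at 3 weeks, and were raised at 23 °C, with 16 h of light and 8 h of dark, on MS medium with agar and 1% sucrose. The transgenic plants express a fusion of MYB106, a MYB transcription factor known for its part in trichome and epidermal cell shape, to VP16, a viral domain that activates transcription, from the 35S promoter, which is active in most plant tissues. The number of independent transgenic lines used is not stated in the labels. Several seedlings from a shared plate went into an RNA extraction, and the labels do not say that replicates were grown separately, so p-values reflect only how these samples varied, and that variation may be technical.

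In plants, D-type cyclins bound to CDKA act at the entry into the cell cycle, A-type cyclins act from DNA replication to mitosis, and B-type cyclins with the plant-specific CDKB kinases act at the entry into mitosis. KRP proteins bind and inhibit cyclin-CDK complexes. In growing leaves, cells that leave mitotic division often go on to copy their DNA without dividing (endoreduplication), and loss of mitotic cyclin activity and gain of CDK inhibitors are known to accompany that switch.

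The mitotic genes were lower in 35S:MYB106VP16 seedlings almost throughout, while the KRP genes were split. Of the 38 members tested, 28 were called lower (73.7%) and 3 higher (7.89%), at a limma adjusted p under 0.05 over all genes tested. Among all 20509 genes, 52.9% were called, 24.8% lower and 28.1% higher. At least 1.5-fold lower were 23 members, against 12.8% of all genes, and at least 2-fold lower were 13 members, against 4.72% of all genes. At least 1.5-fold higher was 1 member (KRP2), against 13.5% of all genes, and no member was called at least 2-fold higher, against 5.77%. Counts at an unadjusted p under 0.05 were the same, 28 lower and 3 higher. The median log2 change was -0.67 over the members and 0.02 over all genes tested. On 28 members every transgenic array lay below every wild-type array, and on 4 every one lay above, where 27.1% and 30.3% of all genes did so. The RNA came from whole seedlings, so fewer dividing cells and less of these transcripts per cell cannot be told apart.

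**Figure D1:**
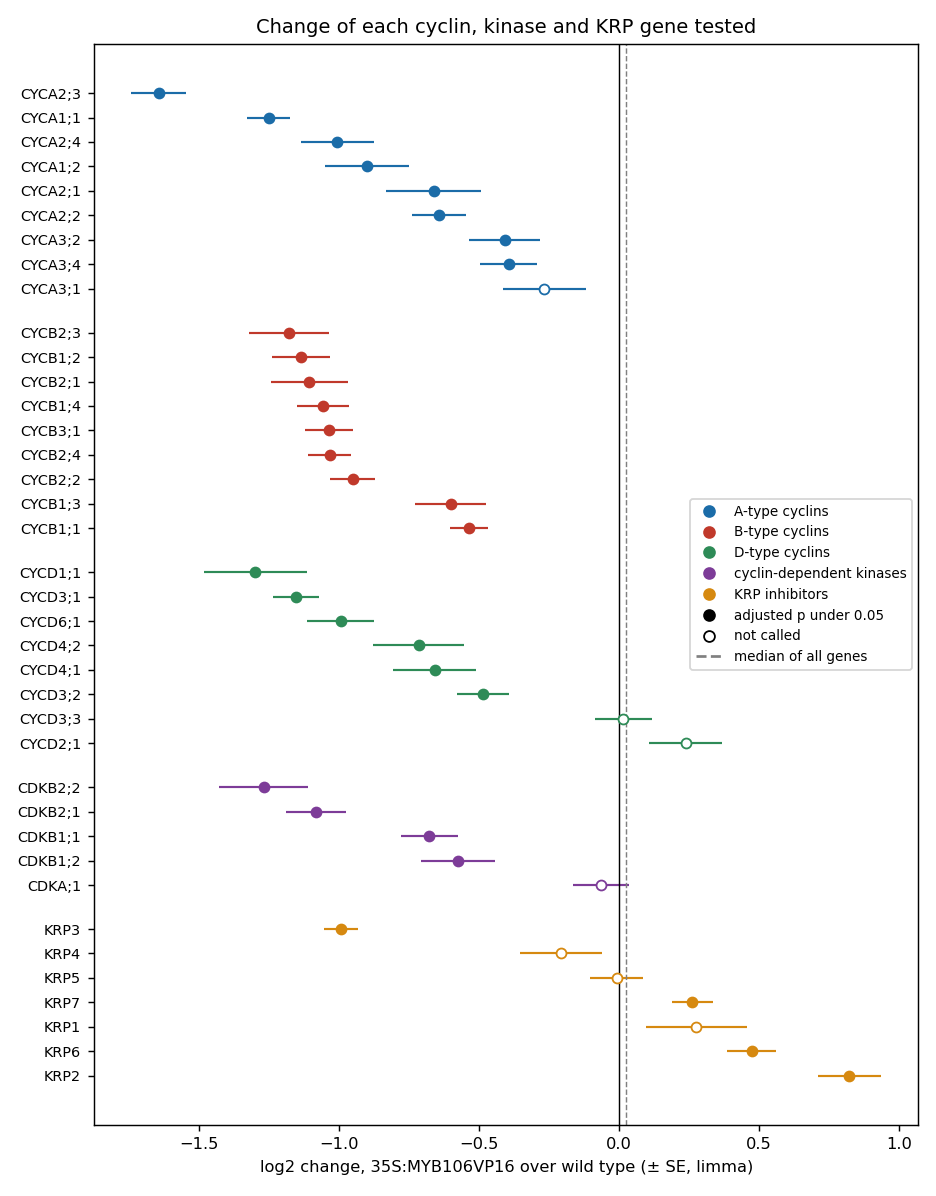
Change of the 38 members tested, as log2 of 35S:MYB106VP16 over wild type (horizontal axis), by class from A-type cyclins at the top to KRP inhibitors at the bottom. Points are limma estimates and bars their SE, filled points were called, and the dashed line marks the median of all genes (0.02). All A-type and B-type cyclins and kinases lie left of 0, whereas 4 of 7 KRP genes lie right of it, a side on which KRP2 alone remained when arrays were scaled on spike-in transcripts.

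The transgene and the arrays were checked first. MYB106 signal was 848, 980, 1114 and 591 on the transgenic arrays, against 17.3, 13.8 and 18.8 on the wild-type arrays, as percent of each array's 75th-percentile signal, the scale of all signals below. That is 52.1-fold higher. Transcripts of the fusion and of the native gene were not separated. All 38 members tested were well above background on all 7 arrays, and no spot was saturated. Log2 signals correlated across genes at 0.988 to 0.992 among transgenic arrays, 0.990 to 0.994 among wild-type arrays and 0.955 to 0.966 between genotypes. The 4 transgenic arrays shared a slide and the 3 wild-type arrays another, scanned separately, so slide and genotype cannot be told apart for any value here. The 8 bright spike-in transcripts read 0.19 to 0.88 higher in log2 on the transgenic slide, and scaling on them adds -0.65 to every log2 change alike.

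Among the D-type cyclins, which link outside signals to cell cycle entry, 6 of 8 tested were lower in 35S:MYB106VP16 seedlings and none was called higher. Of all genes 24.8% were called lower and 28.1% higher. The median log2 change of these cyclins was -0.69. CYCD1;1 (AT1G70210) signal was 9.06, 10.4, 6.14 and 9.75 on the transgenic arrays, against 19.2, 21.8 and 23.1 on the wild-type arrays, 2.46-fold lower (log2 change -1.299 ± 0.18 SE, adjusted p = 0.00119). CYCD3;1 (AT4G34160), a cytokinin-responsive cyclin that keeps leaf cells dividing, had 56.4, 49.4, 56.3 and 53.8 in transgenic and 115, 130 and 115 in wild-type seedlings, 2.22-fold lower (-1.15 ± 0.082 SE, adjusted p = 0.000137). In both genes the genotypes were well apart, with each transgenic array far below the lowest wild-type array.

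The other CYCD3 genes, which act redundantly with CYCD3;1 in lateral organs, were at log2 changes of -0.49 and 0.02. CYCD3;2 (AT5G67260) averaged 113 ± 11.4 in transgenic seedlings and 158 ± 5.29 in wild type (SD, n = 4 and 3), 1.40-fold lower (adjusted p = 0.0044). CYCD3;3 (AT3G50070) had 133, 108, 140 and 128 on the transgenic arrays, against 130, 126 and 119 on the wild-type arrays, and was not called (log2 change 0.02 ± 0.10 SE, adjusted p = 0.913). Its transgenic values spanned all of the wild-type ones.

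CYCD6;1 (AT4G03270), known for its part in the asymmetric division that makes root cortex and endodermis, had 2.90, 2.40, 3.04 and 2.27 in transgenic and 5.32, 5.48 and 4.97 in wild-type seedlings, 1.99-fold lower (-0.995 ± 0.12 SE, adjusted p = 0.000633). CYCD4;1 (AT5G65420) had 18.8, 15.1, 18.8 and 23.9 on the transgenic arrays, against 29.8, 28.1 and 31.7 on the wild-type arrays, 1.58-fold lower (-0.66 ± 0.15 SE, adjusted p = 0.00822). CYCD4;2 (AT5G10440), which like CYCD4;1 is known for divisions in the stomatal lineage of the hypocotyl, had 1.78, 1.57, 1.38 and 2.004 in transgenic and 3.34, 2.35 and 2.62 in wild-type seedlings, 1.64-fold lower (-0.72 ± 0.16 SE, adjusted p = 0.00855). The genotypes did not overlap in any of the 3, though CYCD4;1 and CYCD4;2 came closer to doing so than CYCD6;1.

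CYCD2;1 (AT2G22490) was not called, with 38.1 to 50.3 in transgenic and 30.7 to 40.2 in wild-type seedlings (log2 change 0.24 ± 0.13 SE, adjusted p = 0.161). It was called higher with normexp background correction (0.30, adjusted p = 0.0295) and in the authors' deposited series table (0.45, adjusted p = 0.0252), and stood at -0.42 with spike-in scaling (adjusted p = 0.0802). CYCD7;1 (AT5G02110), a cyclin of the guard mother cell division, was not tested. Its brighter probe was well above background on 2 of 4 transgenic and 0 of 3 wild-type arrays, and its other probe on 0 of either.

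CDKA;1 (AT3G48750), the kinase partner of D-type cyclins and the ortholog of yeast CDC28 and cdc2, was not called. Its signal was 256, 244, 303 and 243 on the transgenic arrays, against 253, 281 and 285 on the wild-type arrays (log2 change -0.065 ± 0.10 SE, adjusted p = 0.605). The ranges overlapped, with the highest value of all on a transgenic array.

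Of the 9 A-type cyclins, 8 were lower in 35S:MYB106VP16 seedlings, against 24.8% of all genes. At least 1.5-fold lower were 6 of them, against 12.8% of all genes, and the class median log2 change was -0.66. CYCA2;3 (AT1G15570), which is known to restrain endoreduplication, had 23.8, 19.4, 19.5 and 22.1 on the transgenic arrays, against 62.2, 66.6 and 69.5 on the wild-type arrays. It was 3.13-fold lower (-1.65 ± 0.097 SE, adjusted p = 8.05e-05), farther down than any other of the 38 members. A second CYCA2;3 probe gave a log2 change of -1.82. The percentile of CYCA2;3 among the changes of all genes tested, counted from the most lowered, was 1.5.

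The other CYCA2 genes, which act together with CYCA2;3 and CDKB1;1 (AT3G54180) in mitotic division and in the stomatal lineage, were lower too. CYCA2;4 (AT1G80370) had 5.85, 6.33, 4.68 and 5.61 in transgenic and 9.83, 12.7 and 11.3 in wild-type seedlings, 2.01-fold lower (-1.01 ± 0.13 SE, adjusted p = 0.000816). CYCA2;2 (AT5G11300) had 5.89, 5.07, 5.88 and 4.82 in transgenic and 8.10, 8.40 and 8.79 in wild-type seedlings, 1.56-fold lower (-0.64 ± 0.096 SE, adjusted p = 0.00147). For both, all transgenic arrays lay below all wild-type arrays. CYCA2;1 (AT5G25380) had 0.776, 1.14, 0.973 and 0.709 in transgenic and 1.55, 1.35 and 1.3 in wild-type seedlings, 1.58-fold lower (-0.66 ± 0.17 SE, adjusted p = 0.0139). Its call was lost with another background correction (adjusted p = 0.299).

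CYCA1;1 (AT1G44110), a cyclin of the mitotic cycle, had 16.3, 17.5, 16.0 and 17.5 on the transgenic arrays, against 39.6, 37.7 and 42.9 on the wild-type arrays, 2.38-fold lower (-1.25 ± 0.076 SE, adjusted p = 8.97e-05). CYCA1;2 (TAM, AT1G77390), best known from meiosis, had 6.46, 7.01, 7.23 and 7.22 in transgenic and 15.9, 10.1 and 13.7 in wild-type seedlings, 1.87-fold lower (-0.90 ± 0.15 SE, adjusted p = 0.00226). The transgenic arrays lay close together in both, and in CYCA1;2 the wild-type arrays were the more scattered.

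The CYCA3 genes, which are expressed around the start of DNA replication, were the least changed A-type cyclins. CYCA3;2 (AT1G47210) averaged 42.5 ± 6.55 in transgenic and 55.9 ± 1.97 in wild-type seedlings (SD, n = 4 and 3), 1.33-fold lower (adjusted p = 0.0297). CYCA3;4 (AT1G47230) averaged 8.70 ± 0.96 in transgenic and 11.4 ± 0.56 in wild-type seedlings, 1.32-fold lower (adjusted p = 0.0136). CYCA3;1 (AT5G43080), with 1.87 to 2.46 in transgenic and 2.34 to 3.07 in wild-type seedlings, was not called (adjusted p = 0.165). Calls of CYCA3;2 and CYCA3;4 depended on single arrays: with 1 array left out, the adjusted p of CYCA3;2 reached 0.0921 without wild-type replicate 3, 0.0747 without wild-type replicate 1, 0.0609 without wild-type replicate 2 and 0.0612 without transgenic replicate 4. That of CYCA3;4 reached 0.0521 without wild-type replicate 2 and 0.0509 without wild-type replicate 3. Both calls were also lost with median scaling (adjusted p = 0.101 for CYCA3;2 and 0.0579 for CYCA3;4). The CYCA3;4 call was lost with quantile normalization too (adjusted p = 0.0596).

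**Figure D2:**
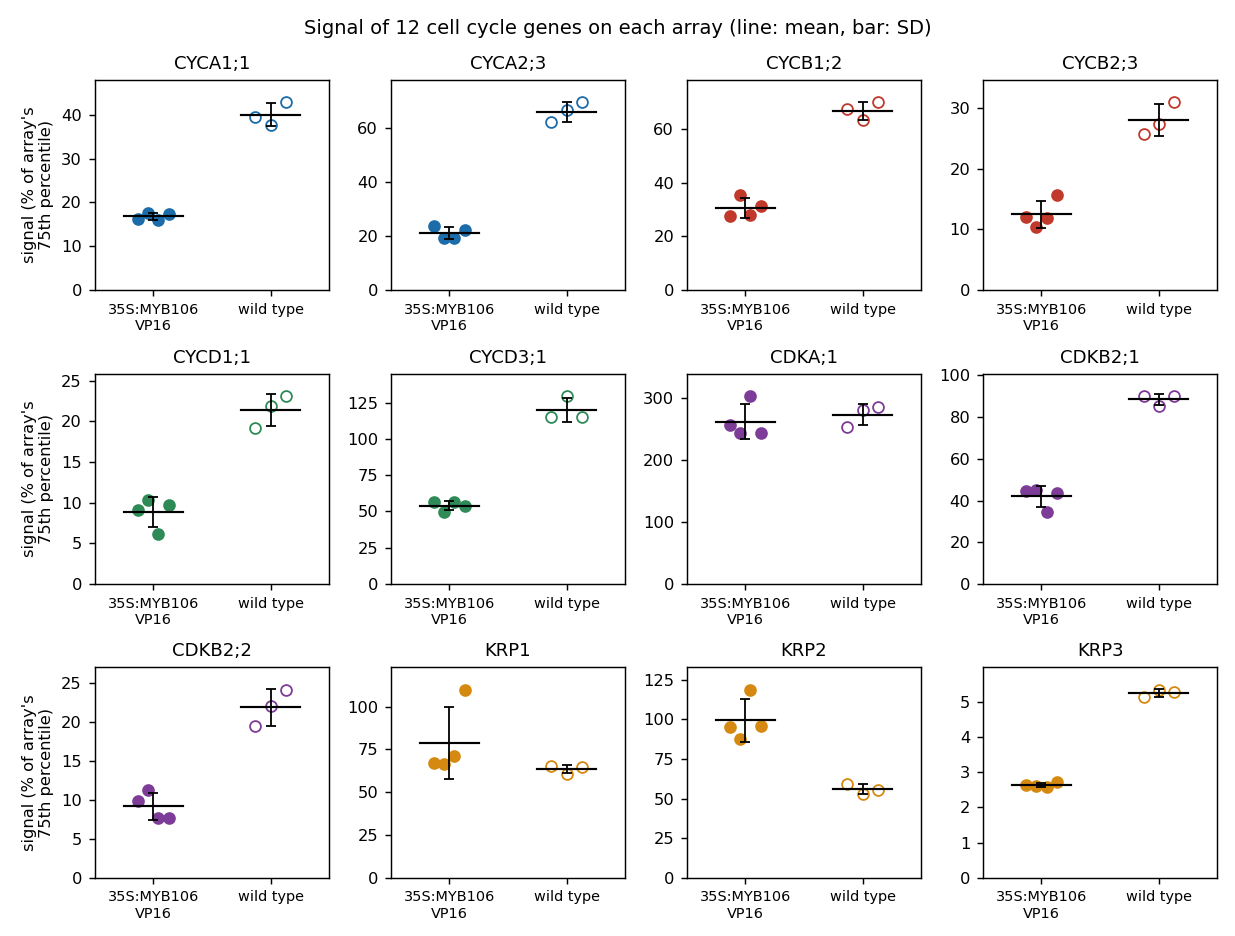
Signal of 12 members on each array, as percent of the array's 75th-percentile signal (vertical axes, from 0), with 35S:MYB106VP16 left (filled points, 4 arrays) and wild type right (open points, 3 arrays). Lines are means and bars SD. CYCA2;3 reads 19.4 to 23.8 in transgenic and 62.2 to 69.5 in wild-type seedlings, CDKA;1 overlaps, and KRP2 lies above wild type.

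All 9 B-type cyclins, the regulators of entry into mitosis, were lower in 35S:MYB106VP16 seedlings, where 24.8% of all genes were called lower. At least 1.5-fold lower were 8 and at least 2-fold lower 6, against 12.8% and 4.72% of all genes. The median log2 change of the B-type cyclins was -1.04. In each of the 9 genes every transgenic array lay below every wild-type array, as in 27.1% of all genes. CYCB2;3 (AT1G20610) had 11.97, 10.4, 11.9 and 15.6 on the transgenic arrays, against 25.7, 27.4 and 30.9 on the wild-type arrays, 2.26-fold lower (-1.18 ± 0.14 SE, adjusted p = 0.000671). CYCB2;1 (AT2G17620) had 3.03, 3.47, 3.08 and 4.29 in transgenic and 6.58, 7.81 and 7.86 in wild-type seedlings, 2.15-fold lower (-1.11 ± 0.14 SE, adjusted p = 0.000769).

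The remaining CYCB2 genes were also lower. CYCB2;4 (AT1G76310) had 13.7, 15.3, 14.3 and 15.6 in transgenic and 29.5, 28.9 and 31.9 in wild-type seedlings, 2.05-fold lower (-1.03 ± 0.078 SE, adjusted p = 0.000159). CYCB2;2 (AT4G35620) had 11.8, 12.2, 12.8 and 13.7 in transgenic and 23.1, 24.5 and 25.7 in wild-type seedlings, 1.93-fold lower (-0.95 ± 0.079 SE, adjusted p = 0.000209). The 4 CYCB2 genes spanned log2 changes of -1.18 to -0.95. CYCB3;1 (AT1G16330), the one member of its subfamily, had 3.89, 3.79, 3.33 and 3.99 on the transgenic arrays, against 7.18, 8.02 and 7.84 on the wild-type arrays, 2.05-fold lower (-1.04 ± 0.087 SE, adjusted p = 0.000213).

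The CYCB1 genes, whose transcripts accumulate from late G2 phase to mitosis, spanned log2 changes of -1.14 to -0.54. CYCB1;2 (AT5G06150) had 27.6, 35.3, 27.9 and 31.5 on the transgenic arrays, against 67.5, 63.4 and 70.0 on the wild-type arrays, 2.20-fold lower (-1.14 ± 0.10 SE, adjusted p = 0.000277). CYCB1;4 (AT2G26760) had 28.7, 33.7, 31.4 and 36.3 in transgenic and 65.5, 67.2 and 69.8 in wild-type seedlings, 2.08-fold lower (-1.06 ± 0.093 SE, adjusted p = 0.000245). In both, the highest transgenic array was far below the lowest wild-type array.

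CYCB1;3 (AT3G11520) had 17.0, 18.1, 19.2 and 24.5 in transgenic and 30.2, 29.4 and 29.2 in wild-type seedlings, 1.52-fold lower (-0.60 ± 0.13 SE, adjusted p = 0.00625). CYCB1;1 (AT4G37490), the cyclin most used as a reporter of dividing cells and one whose transcript also rises after DNA damage, had 13.6, 14.1, 13.3 and 14.0 in transgenic and 18.9, 21.0 and 19.9 in wild-type seedlings. That made it 1.45-fold lower (-0.54 ± 0.068 SE, adjusted p = 0.000794), the smallest change among the B-type cyclins. Its arrays lay close together within each genotype and did not overlap between them.

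The 4 CDKB kinases, which in plants are made mainly around mitosis, were all lower (median log2 change -0.88), against 24.8% of all genes. CDKB2;2 (AT1G20930) had 9.90, 11.3, 7.69 and 7.72 on the transgenic arrays, against 19.4, 22.0 and 24.1 on the wild-type arrays, 2.41-fold lower (-1.27 ± 0.16 SE, adjusted p = 0.000749). CDKB2;1 (AT1G76540) had 44.5, 45.1, 34.7 and 43.7 in transgenic and 90.1, 85.3 and 89.9 in wild-type seedlings, 2.12-fold lower (-1.08 ± 0.11 SE, adjusted p = 0.000337). Both CDKB2 kinases, which are needed for the organisation of the shoot meristem, were clearly separated by genotype.

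CDKB1;1, a kinase of stomatal lineage divisions and a brake on endoreduplication, had 13.9, 14.1, 11.97 and 15.3 in transgenic and 23.9, 20.7 and 21.7 in wild-type seedlings, 1.60-fold lower (-0.68 ± 0.10 SE, adjusted p = 0.00148). CDKB1;2 (AT2G38620) had 14.7, 15.9, 13.4 and 19.1 in transgenic and 26.1, 21.4 and 22.6 in wild-type seedlings, 1.49-fold lower (-0.58 ± 0.13 SE, adjusted p = 0.00916), and its second probe gave a log2 change of -0.57. Neither CDKB1 gene overlapped between genotypes. Of the 5 kinases 4 were thus called lower, against 24.8% of all genes, and CDKA;1 was not. With spike-in scaling, which called 68.9% of all genes lower, all 5 were called lower, CDKA;1 at -0.72 (adjusted p = 0.00362).

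**Figure D3:**
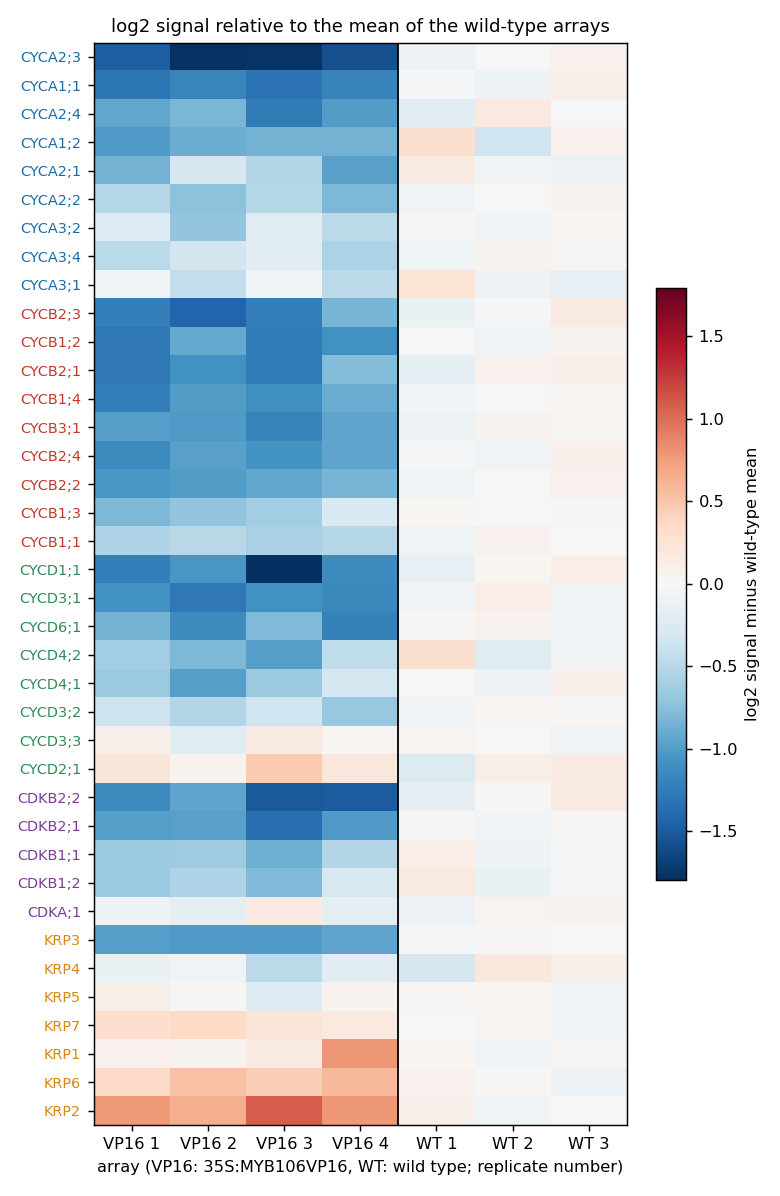
Log2 signal of the 38 members tested on each of the 7 arrays, relative to the mean of the 3 wild-type arrays (colour bar, blue is lower). Transgenic arrays (VP16) stand left and wild-type arrays (WT) right, and genes run by class from A-type cyclins to KRP inhibitors. All 9 B-type cyclins are blue on all 4 transgenic arrays. KRP3 is blue, and KRP2, KRP6 and KRP7 are red, although KRP6 and KRP7 changed sign when arrays were scaled on spike-in transcripts.

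Among the 7 KRP inhibitors 3 were called higher (42.9%, against 28.1% of all genes) and 1 lower (14.3%, against 24.8%). Their median log2 change was 0.26. Scaled on spike-in transcripts that median was -0.39, against -0.63 over all genes. With that scaling 4 were called lower and 0 higher (also 0 at an unadjusted p), where 68.9% of all genes were called lower and 4.9% higher. KRP2 (AT3G50630), an inhibitor of CDKA activity known for its dose-dependent effect on the switch to endoreduplication, had 95.3, 87.6, 119 and 96.0 on the transgenic arrays, against 59.5, 53.0 and 55.3 on the wild-type arrays. It was 1.77-fold higher (0.82 ± 0.11 SE, adjusted p = 0.00106), with every transgenic array above every wild-type array. With spike-in scaling its log2 change was 0.17 and was not called (adjusted p = 0.362).

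KRP3 (AT5G48820) went the other way. Its signal was 2.64, 2.61, 2.59 and 2.72 in transgenic and 5.14, 5.35 and 5.28 in wild-type seedlings, 1.99-fold lower (-0.99 ± 0.061 SE, adjusted p = 8.97e-05). Arrays of the same genotype lay close together, and KRP3 kept its call in all 18 alternative settings tried.

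KRP6 (AT3G19150), known with KRP7 (AT1G49620) from the male germline, where both are removed before division, had 62.9, 71.9, 67.2 and 74.6 in transgenic and 52.5, 50.5 and 46.3 in wild-type seedlings. It was 1.39-fold higher (0.47 ± 0.087 SE, adjusted p = 0.00348), but -0.18 in log2 with spike-in scaling. A second KRP6 probe, annotated with another transcript of the gene, gave 0.15 and was not called (adjusted p = 0.443). KRP7 averaged 9.67 ± 0.55 in transgenic and 8.07 ± 0.34 in wild-type seedlings (SD, n = 4 and 3), 1.198-fold higher (adjusted p = 0.0208), but -0.39 in log2 with spike-in scaling (adjusted p = 0.0277). The KRP7 call was also lost without transgenic replicate 1 (adjusted p = 0.0534) or without wild-type replicate 3 (adjusted p = 0.0917).

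KRP1 (AT2G23430), KRP4 (AT2G32710) and KRP5 (AT3G24810) were not called. KRP1, whose overproduction is known to stop division and enlarge leaf cells, had 67.0, 66.7, 71.3 and 110 on the transgenic arrays, against 65.3, 60.7 and 64.7 on the wild-type arrays (log2 change 0.28 ± 0.18 SE, adjusted p = 0.23). Its transgenic arrays all lay above the wild-type ones, 3 of them only just. KRP4, which has been tied to cell size control in the shoot meristem, had 188 to 248 in transgenic and 211 to 295 in wild-type seedlings (-0.21 ± 0.15 SE, adjusted p = 0.265). KRP5 had 17.6 to 22.1 in transgenic and 19.6 to 21.1 in wild-type seedlings (-0.009 ± 0.095 SE, adjusted p = 0.946).

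Because array-wide scaling cancels in a ratio of 2 genes on the same array, differences between relatives were also computed array by array, for all 57 pairs within 9 families, a comparison chosen after the values were seen. The 7 arrays can be split in 35 ways, so an exact two-sided permutation test cannot go below p = 0.0286 for a pair. No pair passed after adjustment over the 57 (smallest adjusted p = 0.0679), which would have needed most pairs to reach that floor. The log2 ratio of KRP2 to KRP3 was 1.82 higher in transgenic than in wild-type seedlings, and that of CDKA;1 to CDKB2;2 was 1.204 higher. The ratio of CYCD3;1 to CYCD3;3 differed by -1.17 and that of CYCA2;2 to CYCA2;3 by 1.002. Each of these 4 had the exact p of 0.0286 and the adjusted p of 0.0679. Many other pairs shared both values, so they do not set these 4 apart. Within the CYCB2 family the largest pair difference was 0.23. Signal that a probe may take from such relatives was not assessed, since probe sequences were left out.

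Pathway lists around the members were set beside them, and their counts stand against the 24.8% of all genes called lower and 28.1% called higher. All 9 mitosis and cytokinesis genes tested were lower (median log2 change -0.72), led by AUR1, a mitotic Aurora kinase, which was 2.12-fold lower (-1.09 ± 0.074 SE, adjusted p = 0.000123). TPX2, a spindle protein, was 1.69-fold lower (adjusted p = 0.00225). Of 5 activators of the anaphase-promoting complex, which marks mitotic cyclins for destruction, 4 were lower (median -0.72), among them CCS52B (1.996-fold, adjusted p = 0.000375) and CCS52A1 (1.79-fold, adjusted p = 0.00186), of which CCS52A1 is known to promote endoreduplication. Of 4 three-repeat MYB factors, which control the transcription of genes for mitosis, MYB3R4 was 1.51-fold lower (adjusted p = 0.00129) and MYB3R1 1.29-fold lower (adjusted p = 0.0118), with the other 2 not called. The MYB3R1 call was lost with normexp (adjusted p = 0.0687), median scaling (0.0513) and the series table (0.332).

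Genes of DNA replication and its control were called in part. Of the 8 genes for MCM2 to MCM7, CDC6 and CDT1, which license replication origins, 3 were lower (37.5%, against 24.8% of all genes) and none higher (median -0.23), with MCM4 1.60-fold lower (adjusted p = 0.00134) and MCM3 1.51-fold lower (adjusted p = 0.00458). Of 9 RBR, E2F, DP and DEL factors 4 were lower and none higher (median -0.13). DEL2 was 1.82-fold lower (adjusted p = 0.000511) and DEL1, a repressor of the onset of endoreduplication, 1.70-fold lower (adjusted p = 0.00114), while RBR1, the retinoblastoma protein, was not called (adjusted p = 0.453).

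The SIAMESE-type CDK inhibitors, a plant family known for blocking mitosis in endoreduplicating cells such as trichomes, had 4 of 8 tested members higher and 2 lower (median 0.49), of which 1 stayed called higher with spike-in scaling. SMR7 had 26.1, 17.3, 25.4 and 27.9 on the transgenic arrays, against 6.83, 6.02 and 5.09 on the wild-type arrays, 4.01-fold higher (2.002 ± 0.18 SE, adjusted p = 0.00028). SIM, the founding member, had 74.0, 86.5, 105 and 103 in transgenic and 62.6, 46.7 and 41.1 in wild-type seedlings, 1.85-fold higher (0.89 ± 0.18 SE, adjusted p = 0.0052), and was not called with spike-in scaling, where its log2 change was 0.24. Neither gene overlapped between genotypes.

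Among 8 CDK-activating kinases and CDK partners 5 were lower and 2 higher (median -0.39). CDKD1;3, a CDK-activating kinase, was 1.97-fold lower (adjusted p = 0.000445). CKS1, a small protein that docks on CDKs, had 66.1, 63.9, 63.4 and 62.4 in transgenic and 46.9, 26.9 and 24.2 in wild-type seedlings, 2.05-fold higher (1.03 ± 0.21 SE, adjusted p = 0.00558). With spike-in scaling its log2 change was 0.38 and not called. Of 8 CDKs and cyclins that act in transcription rather than division, 4 were higher and 1 lower (median 0.19), led by RCY1 (1.31-fold higher, adjusted p = 0.00699) and AT5G48640 (1.28-fold higher, adjusted p = 0.00952), both of which turned negative with spike-in scaling, at -0.26 and -0.30.

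Of 33 markers tested of tissues that whole seedlings hold, 12 were called (36.4%, against 52.9% of all genes), 8 lower and 4 higher. Counts of each marker list, here and in the next paragraph, stand against the 24.8% of all genes called lower and 28.1% called higher. The part of these tissues in the results above was not tested. Of 8 stomatal lineage markers 4 were lower and none higher, with SPCH, which starts that lineage, 2.52-fold lower (adjusted p = 0.000106) and POLAR 1.61-fold lower (adjusted p = 0.0012). MUTE, TMM and EPF1 had positive log2 changes (0.318, 0.255 and 0.277) and FAMA a negative one (-0.151), none of them called. The summed signal of all 8 was 258 to 378 in transgenic and 336 to 362 in wild-type seedlings, most of it from FAMA and TMM. Of 5 shoot meristem markers tested 2 were lower, ANT, which promotes growth of young organs (2.14-fold, adjusted p = 0.000159), and CUC2, a boundary gene (1.58-fold, adjusted p = 0.00672). The CUC2 call was lost with normexp (log2 change -0.22, adjusted p = 0.0825) and in the series table (adjusted p = 0.0762). STM, which maintains the meristem, was not called (adjusted p = 0.413), and WUS and CLV3 were too dim to test. The summed signal of all 7 meristem markers was 371 to 595 in transgenic and 507 to 541 in wild-type seedlings. Most of it came from CLV1, which alone read 270.2 to 482.1 in transgenic and 360.5 to 381.2 in wild-type seedlings.

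Of 8 root markers 3 were higher (37.5%, against 28.1% of all genes) and 1 lower (12.5%, against 24.8%). Of their log2 changes 4 were positive and 4 negative, with a median of -0.06. The root hair genes PRP3 and EXPA7 were 4.16-fold (adjusted p = 0.000756) and 2.03-fold higher (adjusted p = 0.0104). SHR was 1.39-fold lower (adjusted p = 0.00519), and SCR, PLT1 and PLT2 had negative changes and were not called. Summed root marker signals were 385 to 492 in transgenic and 415 to 505 in wild-type seedlings, mostly from PHO1, SCR and SHR. EXPA7 was not called with spike-in scaling (log2 change 0.37, adjusted p = 0.18). Of 6 green leaf markers 1 was lower, CA1 (1.39-fold, adjusted p = 0.00661), with summed signals of 33640 to 41580 in transgenic and 41690 to 43400 in wild-type seedlings. CA1 was not called in the series table (adjusted p = 0.117). LHCB3 was not called (log2 change -0.17, adjusted p = 0.0981), but was lower with quantile normalization (-0.26, adjusted p = 0.0116), with spike-in scaling (-0.83) and as the mean of its probes (-0.67, adjusted p = 0.000439). Of 6 floral organ markers 1 was called, PI, which was 2.26-fold higher (adjusted p = 0.0102) but not called with spike-in scaling (adjusted p = 0.0511). The other 5 had negative log2 changes and were not called, AG at -1.52 ± 0.71 SE (adjusted p = 0.109), and the list's median was -0.45. AG was called lower with spike-in scaling (adjusted p = 0.00541). The floral markers had summed signals of 135 to 227 in transgenic and 92.2 to 203 in wild-type seedlings, mostly from PI and SEP3.

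The scale chosen for the arrays set how many members were called. Against 28 lower and 3 higher members at the 75th percentile, the authors' deposited series table, scaled by a constant per genotype, gave 20 lower and 4 higher, and spike-in scaling gave 34 lower and none higher. At the 75th percentile 24.8% of all genes were called lower and 28.1% higher. Those shares were 11.1% and 35.6% in the series table, and 68.9% and 4.9% with spike-in scaling. Over all genes tested, 53.2% of calls were higher at the 75th percentile, 66.6% with the median, 76.2% in the series table and 6.63% with spike-in scaling. The median log2 change of all genes moved by 0.12 with median scaling, by 0.21 in the series table and by -0.65 with spike-in scaling. The B-type cyclins kept all 9 calls with quantile, median and spike-in scaling, while CYCB1;1 and CYCB1;3 lost theirs in the series table. The other members that lost a call there were CYCA2;1, CYCA3;2, CYCA3;4, CYCD3;2, CYCD4;2 and CDKB1;2 (adjusted p = 0.0574 to 0.286).

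**Figure D4:**
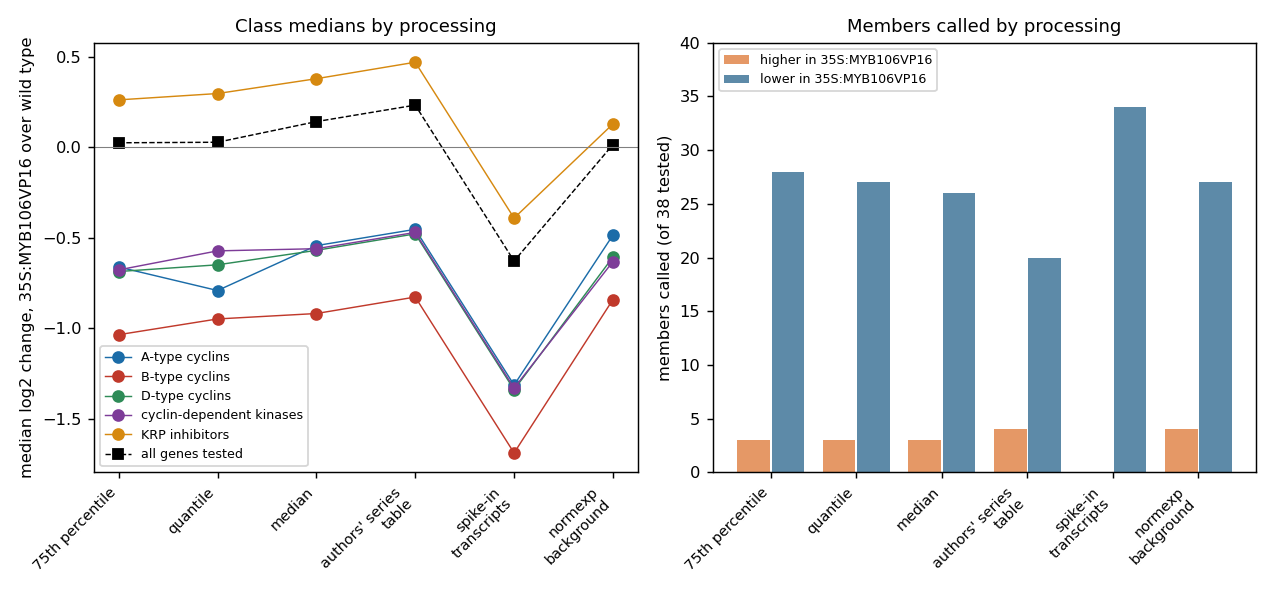
Left, median log2 change (35S:MYB106VP16 over wild type) of each class and of all genes tested (black squares) under 6 ways of processing the arrays. Right, members called higher (left bars) and lower (right bars) of 38 tested. The cyclin and kinase medians stay below that of all genes in all 6, and the KRP median stays above it but changes sign with spike-in scaling, to -0.39.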

How the data were processed

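Spot intensity was extracted by the authors with Agilent Feature Extraction (version 9.1.3.1, per the submitters' processing notes). Its processed signals, background-subtracted per the file headers, were used as deposited. Outlier spots were removed, spots of a probe averaged, and log2 of the deposited signal taken relative to the array's 75th percentile. The authors' deposited series table, the same intensity divided by a constant per genotype and not centred, served as an alternative. How those constants were chosen is not stated in the labels.

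Probes were named through their RefSeq accessions (TAIR10.1 table of RefSeq); 34185 of 36022 matched. A gene was represented by its brightest probe and tested if it passed the well-above-background flag on 3 arrays or more. All genes entered 1 limma fit (limma 3.58.1, R 4.3.3; lmFit and eBayes, genotype as the only term), with p-values adjusted by Benjamini-Hochberg over all genes and called under 0.05. The fit was also run on simulated arrays with independent noise and no slide effect, so that run does not bear on slide differences. The members and lists were chosen with earlier results of these data known. Values on every array are given for members called with a change of at least 1.5-fold and for the 2 most changed of each class; of each other list, the 2 called members with the largest absolute change are named, filled up to 2 by smallest p. Other genes named, and members given by array below that size, were chosen after their values were seen. Alternatives tried were background correction by normexp (offset 50), quantile, median and spike-in scaling, the series table, other detection filters and probe rules, each array left out, a replicate block and a test against 1.5-fold. The number of arrays limits the precision. Same-numbered arrays of the genotypes deviated together at correlations of 0.179, -0.026 and -0.082 across genes, so the numbers were not taken as pairs. Slide as a block could not be fitted, since each slide held 1 genotype.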

Additional observations from a re-analysis of the deposited data

Results flagged for a closer look

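On 2 of the 38 members tested, 1 of the 4 transgenic arrays stood far from the other 3, where chance alone gives about 1 in 20. CDKB2;1 had 34.7 on transgenic replicate 3, against 43.7 to 45.1 on the other transgenic arrays, and all 4 lay below wild type. KRP1 had 109.8 on transgenic replicate 4, against 66.7 to 71.3 on the other transgenic arrays. The groups of 3 wild-type arrays are too small for this check.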

How the results depend on the processing

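Of 684 values of members under 18 alternatives, 40 lost a call with the sign kept, 6 gained one, and 3 called in either setting changed sign. The other 635 stayed on their side of the threshold, 15 of them with another sign but called in neither setting (CDKA;1, CYCD2;1, CYCD3;3, KRP1 and KRP5). Called under every alternative were 14 members: CYCA1;1, CYCA2;3, CYCB1;2, CYCB1;4, CYCB2;1, CYCB2;2, CYCB2;3, CYCB2;4, CYCB3;1, CYCD1;1, CYCD3;1, CDKB2;1, CDKB2;2 and KRP3. Members called lower numbered 26 to 28, and higher 2 to 3, with each array left out; with those arrays out 3833 to 5121 of all genes were called lower and 4238 to 5453 higher, against 5083 and 5768. Tested against 1.5-fold, 14 members were lower and 0 higher (17 and 1 at an unadjusted p under 0.05), with 710 genes lower and 795 higher. Under spike-in scaling 0 members were higher in limma (also 0 at an unadjusted p under 0.05), with 14130 genes lower and 1004 higher, and log2 changes turned negative for CYCD2;1 (-0.42), CYCD3;3 (-0.64), KRP1 (-0.38), KRP6 (-0.18), KRP7 (-0.39), RCY1 (-0.26) and AT5G48640 (-0.30), since that scaling adds the same shift to all genes. The series table called 2277 genes lower. All probes as features gave 8997 lower and 8915 higher, 27.1% and 26.8% of the 33215 tested. With the replicate number as a replicate block, 26 members were lower and 3 higher, 4458 and 4583 of all genes; CYCA3;2 (adjusted p = 0.0552) and CYCA2;1 (adjusted p = 0.0556) lost their calls, as did the root marker EXPA7 (adjusted p = 0.0542). Whether the spike-in transcripts were added in equal amounts to the RNA of both genotypes was not tested.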
